A study of Mus musculus with 6 samples.

Results

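Genes of cytoplasmic and nuclear mRNA decay were examined in RNA sequencing libraries of mouse oocytes matured in culture with or without metformin. The set was taken by name: 41 genes of the BTG/TOB adaptors, the CCR4-NOT, PAN2-PAN3 and PARN deadenylases, decapping and XRN nucleases, terminal uridylation and the RNA exosome. All 41 were found among the 55487 genes of the deposited table. There were 3 control and 3 metformin libraries. Per the labels, all oocytes came from females given 10 IU of pregnant mare serum gonadotropin; fully grown germinal-vesicle oocytes were taken 46 to 48 h later, stripped of their cumulus, and matured in M16 medium over 16 h to metaphase II. Metformin, a biguanide antidiabetic drug, was the only labelled difference. The protocol lists 10, 20 and 50 μM, and the labels do not say which dose was sequenced, nor the strain, the age or the number of oocytes in a library. The series title gives aged mice as the source.

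An mRNA is usually destroyed in steps. Deadenylases shorten its poly(A) tail, short tails are marked with uridines, the cap is removed, and exonucleases digest the body from the 5′ end (XRN1) or the 3′ end (the exosome). A growing oocyte stores mRNA in a stable form, and during meiotic maturation much of this store is deadenylated and cleared. BTG4 is the oocyte adaptor that brings CCR4-NOT to maternal mRNA, and several decay factors are themselves stored as mRNA whose translation starts at maturation.

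The libraries held 8622281 to 10588292 counted reads. The 10 oocyte markers examined (among them Gdf9, Bmp15, Zp3 and Mos) together had 16576 to 19771 CPM (counts-per-million of a library's reads) in every library. Of 12 cumulus and granulosa markers, Amh, Amhr2, Foxl2 and Ptx3 were at 0 reads in all libraries, and the summed level of the list was 38.6 to 43.8 CPM in control and 39.7 to 50.6 in metformin libraries, mostly Cyp19a1 (318 to 489 reads). Control replicate 1 had 329 reads of the 7 blood and stroma markers against 0 to 6 in the others; without that library the log2 fold changes given below were 0.535 for Cnot6l, -0.36 for Pabpn1l, -0.28 for Dcp1a and -0.14 for Pan3. As in any bulk sample, fewer cells and less RNA per cell cannot be told apart here.

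The decay genes ranged from a mean of 0.0245 FPKM (Edc3) to 3177 FPKM (Mphosph6). Levels between genes are compared per length, first as the deposited FPKM (fragments per kilobase of gene length, scaled to library size) and, because the deposited lengths proved unusual (they counted overlapping exons repeatedly), also as CPM per kilobase of the longest annotated transcript. Averaged over the 6 libraries, 18 of the 41 genes stood at 10 FPKM or more, 14 between 1 and 10 and 9 below 1. Per kilobase of the longest transcript these numbers were 24, 11 and 6. The median of the 41 was 6.82 FPKM. Among genes that passed the filter on low counts, the median was 9.32 FPKM for 38 decay genes and 2.52 FPKM for all 12793. Differences between metformin and control are given on the scale of CPM after TMM scaling, a correction for differences in library composition. The library kit primes on poly(A) tails. Levels and differences given here can therefore depend on tail length as well as on mRNA amount, and tail length was not measured.

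**Figure D1:**
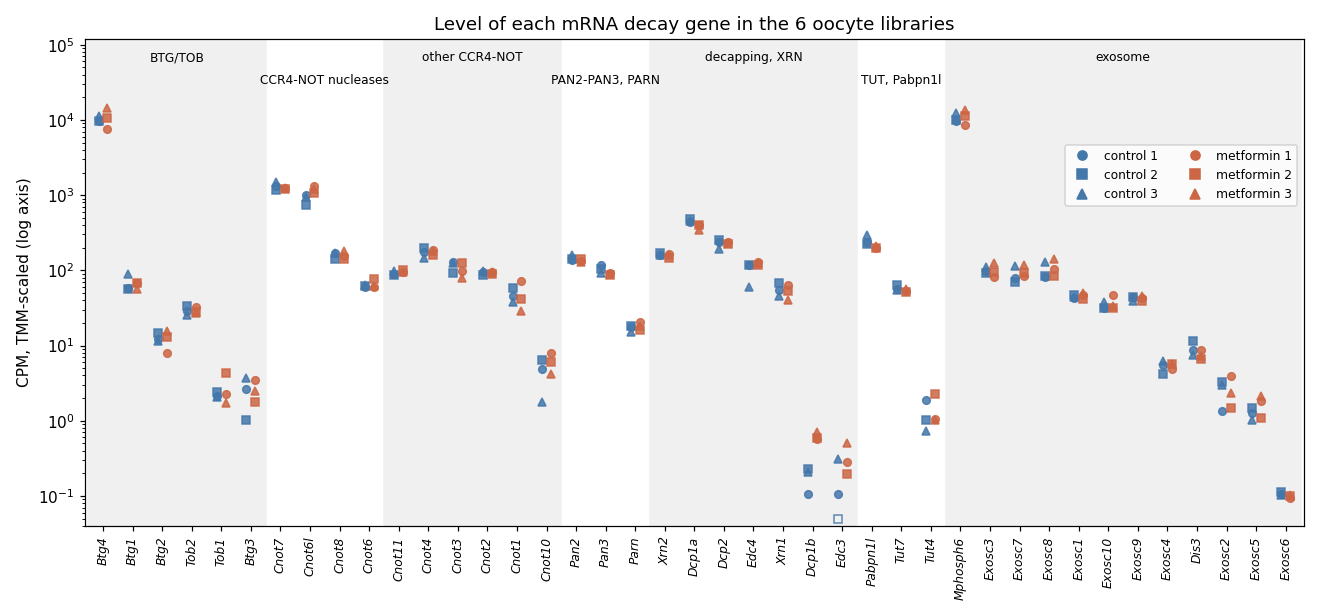
Level of each of the 41 decay genes in every library, in TMM-scaled CPM on a log axis, ordered by mean FPKM within each group; an open symbol at the lower edge stands for 0 reads. Btg4 and Mphosph6 lie between 7684 and 14308 CPM in all 6 libraries, whereas Dcp1b, Edc3 and Exosc6 lie below 1.

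Between metformin and control oocytes no decay gene differed by enough to pass the test. Of the 41 genes, 38 passed the filter on low counts (Dcp1b, Edc3 and Exosc6 did not). Of these 38, 0 passed an adjusted p of 0.05 (edgeR quasi-likelihood test), where 0.0391% of all 12793 genes did; 0 were called higher, beside 0.0235% of all genes, and 0 lower, beside 0.0156%. DESeq2 also called 0, where it called 8 of all 26005 genes with an adjusted p. It put 1 decay gene at an unadjusted p under 0.05, beside 174 of all genes. In the edgeR fit 2 genes had an unadjusted p under 0.05, beside 1.5% of all genes: Cnot6l, a deadenylase, higher (0.883% of all genes) and Pabpn1l, an oocyte poly(A)-binding protein gene, lower (0.618%). The groups of libraries did not overlap for 4 tested decay genes, beside 5.63% of all genes. These were Cnot6l on the higher side, where the share of all genes was 2.84%, and Dcp1a, Pabpn1l and Pan3 on the lower side, where it was 2.79%.

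In the fit 22 decay genes were above 0 and 16 below, where 6715 of all 12793 genes were above and 6078 below. The median log2 fold change of the decay genes was 0.025, against 0.01 over all genes. For 33 of the 38, and for 9723 of all 12793 genes, the 95% interval lay wholly within a 2-fold change in either direction. Among genes averaging at least 10 CPM this held for 30 of 30 decay genes and 6273 of all 6668. For the 5 other decay genes, Btg3, Tob1, Cnot10, Tut4 and Exosc5, the interval reached beyond a 2-fold increase, which was not excluded, but not beyond a 2-fold decrease. These 5 averaged under 1.1 FPKM, as did Exosc2 and Dis3, whose intervals lay within a 2-fold change.

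**Figure D2:**
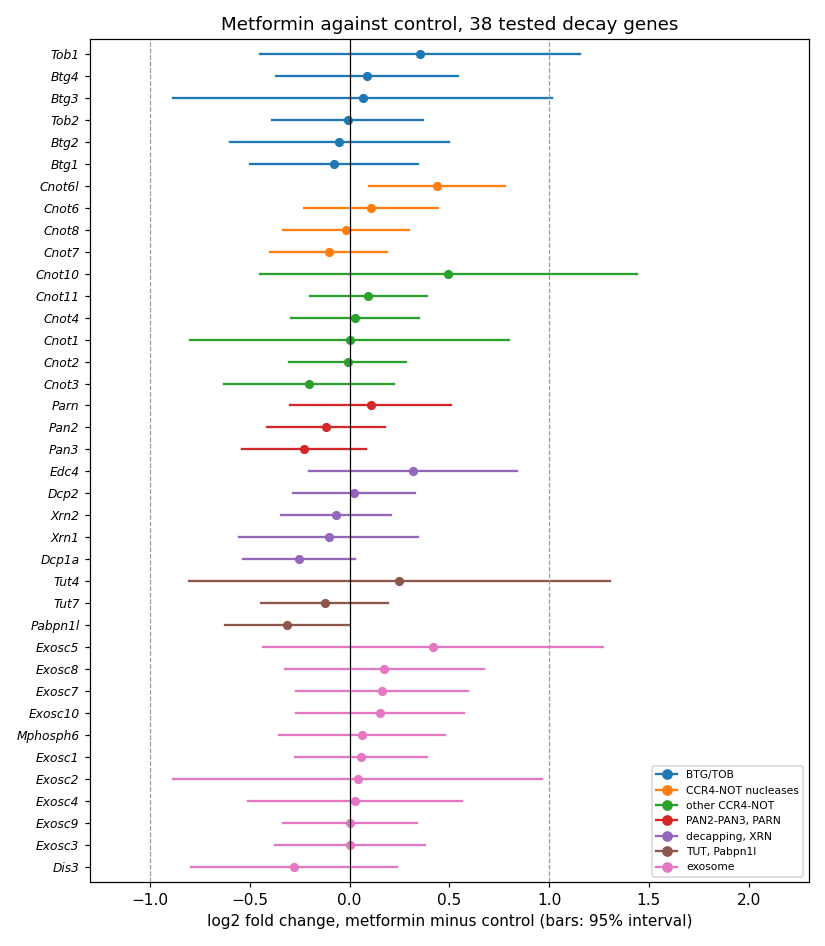
Log2 fold change of metformin against control for the 38 decay genes tested (points) with 95% intervals (bars), by group; dashed lines mark 2-fold changes. The interval of Cnot6l runs from 0.10 to 0.78, that of Pabpn1l ends just below 0, and the remaining 36 include 0.

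Btg4 and Mphosph6 stood far above the rest of the pathway. Btg4 (ENSMUSG00000032056, GRCm38 chromosome 9, 51060901 to 51119875, plus strand) ranked 20 by FPKM and 6 per kilobase of the longest transcript among the genes tested, at a mean of 2888 FPKM. Mphosph6 (ENSMUSG00000031843, chromosome 8, 117791645 to 117801943, minus strand), which encodes M-phase phosphoprotein 6, a cofactor of the nuclear exosome, ranked 15 and 7 at 3177 FPKM. Together the 2 genes took between 1.72% and 2.58% of all counts in a library, and the other 39 decay genes together between 0.482% and 0.571%.

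Btg4 stood at 9562, 9770 and 11400 CPM in control replicates 1, 2 and 3, compared with 7684, 10620 and 14308 CPM in metformin replicates 1, 2 and 3. The metformin libraries held both the lowest and the highest value, so the groups overlapped fully. Its log2 fold change was 0.09 (SE 0.209, 95% interval -0.37 to 0.54; edgeR quasi-likelihood test, adjusted p = 1.00). Mphosph6 had 9715, 10049 and 12354 CPM in control replicates 1, 2 and 3 and 8508, 11373 and 13664 CPM with metformin, a log2 fold change of 0.06 (SE 0.189, 95% interval -0.35 to 0.48; edgeR, adjusted p = 1.00). The 2 genes took the same order over the libraries within each group, and their counts stayed in a ratio of 0.955 to 1.11 Mphosph6 reads per Btg4 read. For both genes the sign of the fitted difference rested on metformin replicate 3, without which it was -0.16 for Btg4 and -0.11 for Mphosph6, and Mphosph6 was at -0.01 without control replicate 1.

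The promoters of these 2 genes, the most abundant of the set, are shown from 250 bases before to 50 after the RefSeq gene start. The sequences are from GRCm38.p6, given 5′ to 3′ on the gene's strand. Any part of promoter sequence in the levels of the 2 genes was not tested. For Btg4 the RefSeq start lies inside the GENCODE span printed above, well downstream of where that span begins. Capitals mark matches to the E-box CANNTG, which FIGLA-type factors bind, to TAATTG (the NOBOX element) and to TAATCC (bound by OTX-type homeodomain proteins), as letters only. TATAAA was also searched, and all motifs were searched on both strands. The Btg4 window is chr9:51115751-51116050, plus strand, and the Mphosph6 window is chr8:117801925-117802224, minus strand.
Btg4: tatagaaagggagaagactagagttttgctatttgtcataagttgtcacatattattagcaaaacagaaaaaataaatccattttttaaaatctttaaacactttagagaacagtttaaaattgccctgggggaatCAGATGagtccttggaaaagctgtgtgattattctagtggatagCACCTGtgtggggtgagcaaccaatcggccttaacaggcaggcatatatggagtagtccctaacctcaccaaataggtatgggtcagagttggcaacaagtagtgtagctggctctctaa
Mphosph6: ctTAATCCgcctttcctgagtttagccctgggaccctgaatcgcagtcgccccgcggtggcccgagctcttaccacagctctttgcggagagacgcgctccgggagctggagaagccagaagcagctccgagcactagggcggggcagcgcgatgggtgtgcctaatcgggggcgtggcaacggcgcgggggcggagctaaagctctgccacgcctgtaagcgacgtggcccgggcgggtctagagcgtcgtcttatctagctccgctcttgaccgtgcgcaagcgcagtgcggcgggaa
The Btg4 window held 2 E-boxes, starting at -114 and -70 from the RefSeq start, and none of the other motifs. The Mphosph6 window held no E-box and 1 TAATCC, at -248. Of all 32851 such windows, 72.31% held CANNTG, 7.06% TAATCC, 8.0% TAATTG and 13.62% TATAAA. The 2 windows shared none of the 4 motifs.

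The other BTG/TOB adaptors were minor in these oocytes. Btg4 made up 99.04% to 99.49% of the summed FPKM of the 6 genes in every library. Btg1, an antiproliferative adaptor that also binds the CCR4-NOT nucleases, averaged 11.6 FPKM, Btg2 4.52, Tob2 3.56, Tob1 1.09 and Btg3 0.597. All 6 passed the filter, 3 were fitted higher and 3 lower, and 0 passed the test. Their log2 fold changes ran from -0.08 to 0.35, the last being Tob1, which had only 17 to 44 reads per library. Of the exon bases of Btg3, 17.3% also lie in exons of Cxadr on the opposite strand, and the kit does not mark strand. The annotated gene Gm7334 matches a Btg3 transcript at 100% identity over 438 bases. Gm7334 had 5 to 21 reads and Btg3 9 to 37, so reads from the shared stretch could have been counted for either.

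The catalytic subunits of CCR4-NOT come as 2 pairs of paralogs, the exonucleases CNOT6 and CNOT6L and the DEDD-type nucleases CNOT7 and CNOT8. Cnot6l was the main form of its pair, with 86.7% to 92.5% of the pair's FPKM over the 6 libraries, and Cnot6 the minor one at 6.82 FPKM. Cnot6l (ENSMUSG00000034724, chromosome 5, 96070333 to 96164171, minus strand) had 1008, 730 and 932 CPM in control replicates 1, 2 and 3, compared with 1343, 1080 and 1198 CPM in metformin replicates 1, 2 and 3. Every metformin library lay above every control library, although metformin replicate 2 and control replicate 1 were close. The log2 fold change was 0.44 (SE 0.156, 95% interval 0.10 to 0.78), with an unadjusted p of 0.0159 and an adjusted p of 1.00 (edgeR), so Cnot6l did not pass. It was the smallest unadjusted p among the decay genes. Without control replicate 2 the log2 fold change was 0.31 with an unadjusted p of 0.0844 (edgeR).

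Cnot6 had 60.0, 61.2 and 63.8 CPM in control replicates 1, 2 and 3 and 59.4, 77.8 and 62.2 CPM with metformin, with metformin replicate 2 above the other 5 (log2 fold change 0.11, 95% interval -0.23 to 0.445). Without that library its fitted difference was -0.02. The share of Cnot6l in the pair was 88.6% ± 1.75 in control and 90.7% ± 2.14 in metformin libraries (SD, n = 3 each), and the groups overlapped.

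Cnot7 (ENSMUSG00000031601, chromosome 8, 40492540 to 40515847, minus strand) had 1308, 1185 and 1477 CPM in control replicates 1, 2 and 3 and 1241, 1191 and 1261 CPM with metformin. All 3 metformin values lay within the control range, and the log2 fold change was -0.10 (SE 0.134, 95% interval -0.40 to 0.19). Cnot8 had 168, 142 and 171 CPM in control replicates 1, 2 and 3 and 155, 140 and 179 CPM with metformin, again overlapping (log2 fold change -0.02, 95% interval -0.335 to 0.30). The share of Cnot8 in the Cnot7 and Cnot8 pair depended on the length used. It was 37.1% to 42.0% by deposited FPKM and 17.7% to 20.9% per kilobase of the longest transcript. The annotated gene Gm18860 matches a Cnot8 transcript at 97.8% identity over 760 bases and had 78 to 121 reads, so reads from the shared stretch could have been counted for either.

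**Figure D3:**
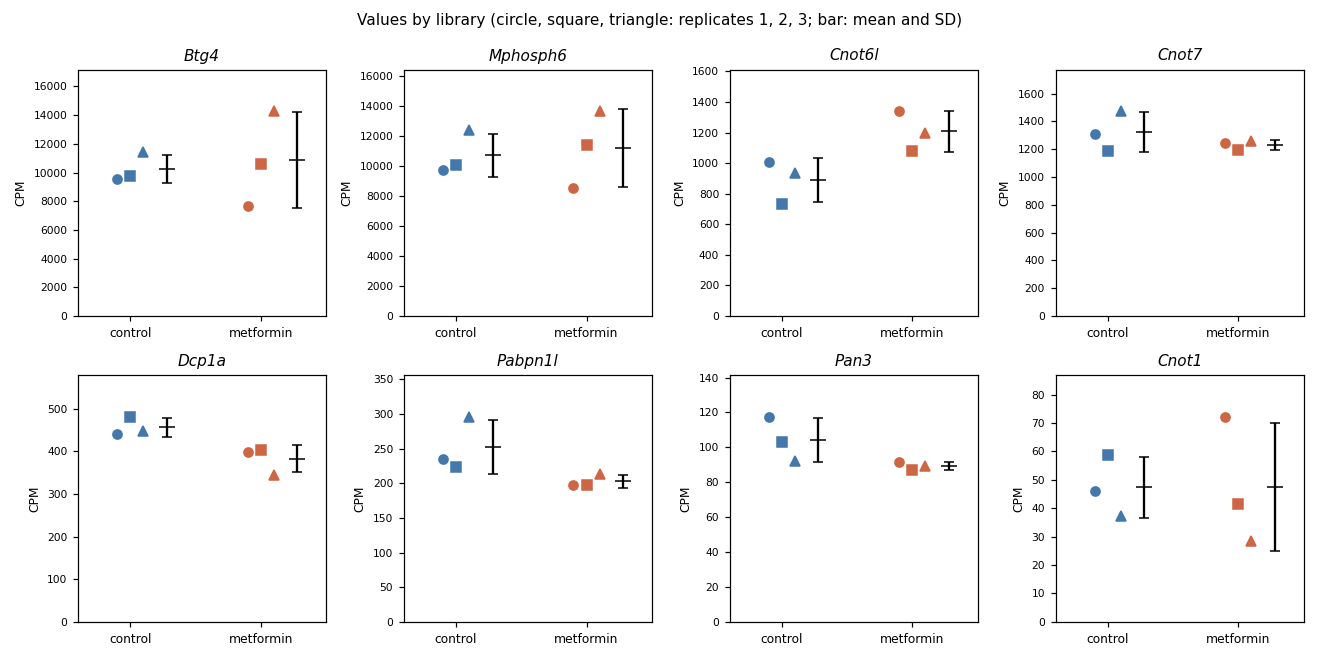
CPM (TMM-scaled, axes from 0) of 8 decay genes in each library, with the mean and SD of the 3 libraries of a group beside the points. Cnot6l lies higher and Dcp1a, Pabpn1l and Pan3 lie lower in all metformin libraries; Btg4, Mphosph6, Cnot7 and Cnot1 overlap.

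The scaffold and accessory subunits of CCR4-NOT in the chosen set stood below Cnot6l, Cnot7 and Cnot8. Cnot9, a CCR4-NOT subunit outside the set that is listed with the further genes below, averaged 56.3 FPKM, near Cnot8 at 56.4. Within the set the highest by FPKM was Cnot11, which with CNOT10 forms a module at the scaffold's amino-terminal end. Per kilobase of the longest transcript Cnot4 was highest at 44.2, and Cnot2 at 31.6 also stood above Cnot11 at 27.2. Cnot11 had 90.3, 87.3 and 98.2 CPM in control replicates 1, 2 and 3 and 95.2, 103 and 96.4 CPM with metformin. It varied little, by a factor of 1.18 from the lowest to the highest library, and the groups overlapped. Cnot4, a RING-type ubiquitin ligase that associates with the complex, averaged 10.3 FPKM, Cnot3 10.2 and Cnot2 9.49. Cnot10 averaged only 0.502 FPKM, with 17 to 84 reads per library, and its log2 fold change was 0.495 with a 95% interval of -0.45 to 1.44 that does not exclude either direction. Single libraries moved that value: it was 0.115 without control replicate 3, 0.25 without metformin replicate 1 and 0.885 without control replicate 2. Its control replicate 3 was lowest at 1.76 CPM, against 4.84 and 6.44 in the other control and 4.20 to 7.99 in the metformin libraries.

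The scaffold gene Cnot1 had the widest range over the libraries among the 30 decay genes averaging at least 10 CPM. It had 46.0, 58.8 and 37.4 CPM in control replicates 1, 2 and 3 and 72.3, 41.4 and 28.4 CPM with metformin. The metformin libraries thus spanned a factor of 2.54, and although the means were equal at 47.4 CPM the 95% interval of the log2 fold change was -0.80 to 0.80. The annotated gene Gm6158 matches a Cnot1 transcript at 99.8% identity over 903 bases and had 7 to 16 reads. In the scaffold and accessory group 3 of 6 genes were fitted higher and 3 lower, and 0 passed the test.

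PAN2-PAN3 makes the first cuts in long poly(A) tails, and PARN is a cap-stimulated deadenylase. Pan2, the nuclease subunit, had 135, 140 and 161 CPM in control replicates 1, 2 and 3 and 132, 142 and 128 CPM with metformin, with overlapping groups (log2 fold change -0.12, 95% interval -0.41 to 0.18). Pan3, the adaptor subunit, had 118, 103 and 92.3 CPM in control replicates 1, 2 and 3 and 91.3, 86.8 and 89.1 CPM with metformin. Every metformin value lay below every control value, by less than 1 CPM at the closest. That separation depended on the scaling: by library size alone control replicate 3 stood at 88.3 CPM, below metformin replicate 1 at 96.8. The log2 fold change of Pan3 was -0.23 (SE 0.143, 95% interval -0.54 to 0.08; edgeR, unadjusted p = 0.137, adjusted p = 1.00), and it was -0.14 without control replicate 1. Parn averaged 2.71 FPKM with a log2 fold change of 0.11.

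Decapping is carried out by DCP2 with its activator DCP1, helped by the scaffold proteins EDC3 and EDC4. Dcp1a supplied nearly all of the DCP1 mRNA, at least 99.7% of the summed FPKM of Dcp1a and Dcp1b in each library. Dcp1a (ENSMUSG00000021962, chromosome 14, 30479535 to 30527063, plus strand) had 442, 482 and 447 CPM in control replicates 1, 2 and 3, compared with 399, 404 and 346 CPM in metformin replicates 1, 2 and 3. All metformin libraries lay below all control libraries, metformin replicate 3 the furthest. The log2 fold change was -0.255 (SE 0.128, 95% interval -0.535 to 0.03; edgeR, unadjusted p = 0.0709, adjusted p = 1.00), and it was -0.19 without metformin replicate 3.

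Dcp1b and Edc3 did not pass the filter. Dcp1b had 1, 2 and 2 reads in control and 6, 6 and 7 in metformin libraries. These do not overlap, but the control values are under the floor of 3 reads. The ratio of the sums, 19 against 5, was 3.47 after correction for depth, with an exact 95% counting interval of 1.25 to 11.9 that covers counting error only. With no filter its adjusted p was 0.997 (edgeR, unadjusted p = 0.0552). Edc3 had 1, 0 and 3 reads in control and 3, 2 and 5 in metformin libraries, and 22.1% of its exon bases lie in exons of Clk3 on the opposite strand.

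Dcp2, the decapping enzyme, averaged 25.4 FPKM and had a log2 fold change of 0.02 (95% interval -0.28 to 0.33). Edc4 had 118, 119 and 60.2 CPM in control replicates 1, 2 and 3 and 130, 116 and 125 CPM with metformin. Control replicate 3 alone was low, and without it the log2 fold change of Edc4 was 0.06 in place of 0.32 (edgeR, adjusted p = 1.00 in both). Exons of Nrn1l on the same strand hold 8.33% of its exon bases. The 5′-to-3′ exonucleases were expressed unequally: the nuclear enzyme gene Xrn2 averaged 35.3 FPKM and the cytoplasmic Xrn1 2.52 FPKM, or 46.7 and 5.30 per kilobase of the longest transcript. Xrn2 was steady with 160, 171 and 162 CPM in control replicates 1, 2 and 3 and 163, 147 and 160 CPM with metformin (log2 fold change -0.07, 95% interval -0.34 to 0.21). Xrn1 overlapped as well, from 45.6 to 68.4 CPM in control and from 40.1 to 63.6 with metformin.

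TUT4 and TUT7 add uridines to mRNAs with short tails, and Tut7 was the more abundant mRNA of the pair. Tut7 had 57.3, 64.8 and 55.0 CPM in control replicates 1, 2 and 3 and 53.9, 51.7 and 56.8 CPM with metformin (log2 fold change -0.12, 95% interval -0.44 to 0.195). Tut4 had 7 to 23 reads per library and made up 1.94% to 6.18% of the pair's FPKM. At that depth its log2 fold change of 0.25 carried a 95% interval of -0.805 to 1.305.

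Pabpn1l encodes the oocyte form of the nuclear poly(A)-binding protein, which takes part with BTG4 and CCR4-NOT in maternal mRNA decay. At 122 FPKM it was the third most abundant decay gene by FPKM. Pabpn1l (ENSMUSG00000069867, chromosome 8, 122619471 to 122622739, minus strand) had 235, 224 and 296 CPM in control replicates 1, 2 and 3, compared with 197, 198 and 213 CPM in metformin replicates 1, 2 and 3. The metformin libraries lay together just below the control libraries, and control replicate 3 was highest. The log2 fold change was -0.31 (SE 0.142, 95% interval -0.62 to -0.001; edgeR, unadjusted p = 0.0491, adjusted p = 1.00), so Pabpn1l did not pass. Without control replicate 3 it was -0.18 with an unadjusted p of 0.230 (edgeR).

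The RNA exosome is a ring of non-catalytic subunits with the nucleases EXOSC10 and DIS3 attached, and its measured subunits differed widely in mRNA level. Among the subunits Exosc3, a cap protein that binds RNA, was highest at 46.0 FPKM, followed by Exosc7 at 12.8, Exosc8 at 11.2, Exosc1 at 9.15, Exosc9 at 6.37 and Exosc4 at 1.47. Per kilobase of the longest transcript Exosc3 was again highest of these subunits at 93.4, but Exosc8 at 44.5 stood above Exosc7 at 23.7. The nuclease genes averaged 6.77 FPKM (Exosc10) and 0.814 FPKM (Dis3). Exosc2, Exosc5 and Dis3 were below 1 FPKM with 10 to 103 reads per library. Of the exon bases of Exosc9, 10.8% lie in exons of Ccna2 on the opposite strand, which had 2388 to 3070 reads. Opposite-strand exons of Pibf1, which had 1099 to 1305 reads, hold 4.19% of the exon bases of Dis3. Exosc6 had exactly 1 read in each of the 6 libraries. Its single exon of 1326 bases (chromosome 8, 111056339 to 111057664) lies wholly within annotated exons of Aars on the same strand, and Aars had 36 to 96 reads, so the reads of the pair cannot be divided with certainty.

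The groups overlapped for all 11 tested genes of the exosome and its cofactor. Exosc3 had 99.2, 93.4 and 111 CPM in control replicates 1, 2 and 3 and 82.2, 96.4 and 126 CPM with metformin, with metformin replicates at both ends. Exosc8 had 81.6, 83.8 and 128 CPM in control replicates 1, 2 and 3 and 105, 84.6 and 141 CPM with metformin, and the replicate 3 library was highest in both groups. Exosc10 had 31.1, 31.3 and 38.4 CPM in control replicates 1, 2 and 3 and 46.9, 31.1 and 34.1 CPM with metformin, metformin replicate 1 alone being high. Of the 11 genes of the exosome and its cofactor tested, 10 were fitted higher, beside 6715 of all 12793 genes. The other, Dis3, was fitted lower (-0.28, 95% interval -0.80 to 0.24). The 11 log2 fold changes ran from -0.28 to 0.42, with Exosc3 (0.001) and Exosc9 (0.002) near 0. The median of the 11 was 0.06, against 0.01 over all genes, and 0 passed the test (edgeR).

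Among further genes of mRNA decay 0 were called as well. From a list of 55 further genes (the LSM-PAT1-DDX6 module, other CCR4-NOT partners, other deadenylases and cap hydrolases, nonsense-mediated decay, exosome helicases and poly(A)-binding proteins), 51 were tested, 26 lay above 0 and 25 below. By edgeR 0 passed in either direction, beside 0.0391% of all genes. By DESeq2 0 passed too, beside 8 of all 26005 genes with an adjusted p. Their median log2 fold change was 0.01. Groups did not overlap for 3 on the higher side (Lsm7, Pabpc4 and Rbm7), beside 2.84% of all genes, and for 1 on the lower (Patl1), beside 2.79%. By library size alone Pabpc4 and Rbm7 overlapped as well. The smallest unadjusted p belonged to Lsm7, a subunit of the LSM ring that binds the 3′ ends of deadenylated mRNA, with 34.0, 34.8 and 20.8 CPM in control replicates 1, 2 and 3 and 41.3, 58.6 and 56.1 CPM with metformin. Its groups did not overlap, with control replicate 3 furthest away, and its log2 fold change was 0.80 (SE 0.221, 95% interval 0.32 to 1.285; edgeR, unadjusted p = 0.00371, adjusted p = 1.00). The adjusted p stayed between 0.558 and 1.00 under every alternative run. Of the 10 other genes listed for the LSM-PAT1-DDX6 module, 0 had an unadjusted p under 0.05 (edgeR): Lsm2 averaged 29.0 ± 7.94 CPM in control and 23.3 ± 4.22 with metformin, and Lsm1 averaged 182 ± 24.9 and 182 ± 39.7 CPM (SD, n = 3 each).

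Next on the higher side was Pabpc4, a cytoplasmic poly(A)-binding protein gene, at 58.4 ± 4.39 and 67.2 ± 2.37 CPM, and on the lower side Patl1, which links the LSM ring to decapping, at 44.0 ± 4.67 and 35.1 ± 4.09 CPM (SD, n = 3 each). Neither passed (edgeR, adjusted p = 1.00). The most abundant of the further genes by FPKM were Angel2 at 80.1, a CCR4-family gene, Cnot9 at 56.3, a CCR4-NOT subunit, and Lsm1 at 44.2, with log2 fold changes of 0.045, -0.003 and -0.005.

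The replicate 3 library was more often the highest of its group in both groups than the lowest in both, over all genes as well as among the decay genes. Among the 30 decay genes averaging at least 10 CPM, the replicate 3 library was the highest of its group in both groups for 8 (Btg4, Mphosph6, Cnot7, Cnot8, Pabpn1l, Exosc3, Exosc7 and Exosc8) and the lowest in both for 3 (Cnot1, Xrn1 and Tob2). Over all 6668 genes at that level these shares were 22.78% and 16.80%, against 26.67% and 10.00% of the decay genes. The 8 genes have longest annotated transcripts of 1077 to 3890 bases, and the 3 have 4151 to 10256. Across the 30 decay genes, the log2 difference of metformin replicate 3 from metformin replicate 1 had a Spearman rank correlation of -0.67 with the length of the longest transcript, and that of control replicate 3 from control replicate 1 one of -0.52. Over 6664 genes the values were -0.39 and -0.09. These are descriptions across genes that share libraries and amplification, and were looked at after the values had been seen. The fitted difference of metformin from control had correlations of -0.15 (decay genes) and -0.065 (all genes) with length. The part of transcript length in the single-gene differences above was not tested.

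The mRNAs of several decay factors are known to carry cytoplasmic polyadenylation elements (CPEs), U-rich sites through which CPEB controls tail length and translation in oocytes. The last 150 bases of the 3′ UTR were read from 1 GENCODE M21 transcript per gene (the highest APPRIS rank, then the longest 3′ UTR), on the sense strand. TTTTAT or TTTTAAT was present in 13 of the 38 decay genes with a 3′ UTR that long (34.21%) and in 27.38% of 9532 tested genes. The Pumilio motif TGTANATA was present in 4 (10.53%) and in 7.29%. AATAAA or ATTAAA starting in the last 50 bases was present in 29 (76.32%) and in 80.65%. TTTTAAT can overlap AATAAA. Of the 4 genes without overlap between groups, Dcp1a and Pan3 held a CPE match in this window and Cnot6l and Pabpn1l did not. Of the most abundant, Btg4 held 2, and Mphosph6 and Cnot7 held 0. The 30 bases around the match nearest to the last poly(A) hexamer, or to the transcript end where there is no hexamer, are shown for these genes, and for Cnot8, Pan2 and Exosc3, where the match starts 8 to 14 bases before the hexamer. Capitals mark the CPE match.
Btg4 chr9:51119799-51119828, plus strand: ataaatccctTTTTATgtctttttaaaagt
Cnot8 chr11:58118547-58118576, plus strand: ttatttatgtTTTTAATtttgtaaaataaa
Dcp1a chr14:30527011-30527040, plus strand: aaatatatttTTTTAATaaaatttcaaaac
Pan2 chr10:128321307-128321336, plus strand: aaacagcatgTTTTATaaaataaaagtatt
Pan3 chr5:147548461-147548490, plus strand: tagcagtattTTTTAATaaagaattgcaga
Exosc3 chr4:45316623-45316652, minus strand: ttataaaaacTTTTATataataaactttgt
Dcp1a and Pan3 both hold the TTTTAAT form. It runs into AATAAA, and the match starts 43 (Dcp1a) and 32 (Pan3) bases from the annotated end. The 3′ ends used in these oocytes were not measured, and a match in the window is a description of the annotated sequence.

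The length behind the deposited FPKM changes how the decay genes rank against each other. For 40 of the 41 genes, and for 97.45% of the 12783 tested genes that could be compared, the length implied by count and FPKM equalled, to within 0.1%, the sum of all distinct annotated exons of the gene, in which bases shared by overlapping exons of different isoforms are counted more than once. Over the decay genes this length was 1.00 to 4.72 times the longest annotated transcript, with a median of 2.10, and it was more than 2 times as long for 25 genes. A longer divisor lowers the FPKM of genes with many overlapping exons relative to genes with few. Cnot4 was at 10.3 FPKM, below Btg1 at 11.6, but at 44.2 per kilobase of the longest transcript, above Btg1 at 13.1. Pan3 went from 3.70 to 17.5 and Cnot7 from 89.0 to 328, whereas Tob1, for which both lengths were equal, was at 1.09 on both. Pabpn1l and Cnot7 changed places: Pabpn1l was higher by FPKM and Cnot7 per kilobase of the longest transcript. Btg4 and Mphosph6 also changed places, but their ranges over the libraries overlapped on either scale. Comparisons of 1 gene between libraries do not depend on the length.

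**Figure D4:**
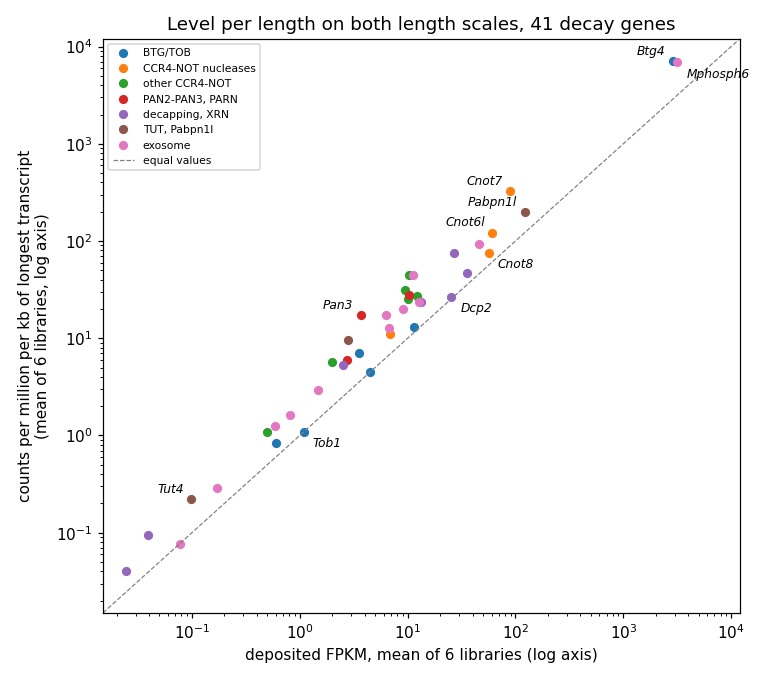
Mean level of the 41 decay genes over 6 libraries by deposited FPKM (x) and by CPM per kilobase of the longest annotated transcript (y), both on log axes; the dashed line marks equal values. Pan3 (3.70 and 17.5) and Cnot7 (89.0 and 328) lie far above the line, and Tob1 (1.09 on both) lies on it.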

How the data were processed

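RNA was measured in 6 mouse oocyte libraries, 3 control and 3 metformin, grouped by sample title. Per the labels' protocols, the library kit was SMART-Seq HT, a poly(A)-primed protocol without strand information or molecular identifiers. Per the submitters' processing notes, CASAVA 1.8 and TopHat2 2.0.6 were used with mm10; which program counted the reads is not given in the sources used here. Per the file headers, the deposited table holds raw counts and FPKM values per Ensembl gene. Counts were used as deposited; FPKM values entered no test. Symbols and coordinates are from GENCODE M21 (GRCm38), found for 55141 of 55487 identifiers, and promoter windows from RefSeq (GRCm38.p6), which has entries for 36 of the 41 genes. The deposited FPKM lengths were checked against the annotated exons.

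Counts were filtered with filterByExpr (minimum count 10), scaled by TMM and fitted over both groups with robust quasi-likelihood dispersions in edgeR 4.0.16 under R 4.3.3. The design held group alone, and p-values were adjusted by Benjamini-Hochberg over the 12793 genes tested (threshold 0.05). The SE is the log2 fold change divided by the square root of F, and intervals are 95%. Log2 differences between single libraries used CPM with 0.5 added. A floor of 3 reads equals 0.285 to 0.339 CPM; such floors, like the counting intervals, describe counting error alone. Scripts were tested on simulated data. The genes and lists were chosen with earlier results of these data known. Values per library are given for the highest gene of each group, the 3 smallest p in each direction, genes without overlap, and paralog pairs, with further genes named after their values were seen. The labels do not say whether samples came from separate animals or pools, so p-values measure the spread between these samples. DESeq2 1.42.0, other scalings and filters, a replicate block and leaving out each library were alternatives.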

Additional observations from a re-analysis of the deposited data

How the results depend on the processing

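Of the decay genes, 0 passed under any of the 14 alternatives run (edgeR under RLE and library-size scaling, TMM without Btg4 and Mphosph6, no filter, a mean of at least 10 CPM, a replicate block, a non-robust fit and each library left out, and DESeq2), and 0 of the further decay genes did. Over all genes 5 were called; leaving out 1 library gave 5 to 12 (12 without metformin replicate 3, 11 without metformin replicate 2, 9 without metformin replicate 1 or control replicate 1, 8 without control replicate 3), and DESeq2 gave 8, which included the 5. The replicate block gave 7. Same-numbered libraries deviated together with correlations of 0.16, 0.04 and 0.26 over 6668 genes. Differently numbered ones ran from -0.22 (control replicate 3 with metformin replicate 1) to 0.08. Control replicate 2 correlated best with metformin replicate 1 (0.08). The labels do not say that same-numbered samples are related, and the numbers were not taken as pairs in the main fit. Whether replicates 1 and 3 share a source across groups was not tested. Under the block Cnot6l had a log2 fold change of 0.45 (edgeR, unadjusted p = 0.00281) and Pabpn1l of -0.30 (edgeR, unadjusted p = 0.0375). The adjusted p was 1.00 for both (edgeR). In that run 296 of all genes had an unadjusted p under 0.05, against 192 in the main fit (edgeR). Over all genes, the median shifted by at most 0.011 (log2) under the other scalings.

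Several fitted differences near 0, and that of Tut4 (0.25, at 7 to 23 reads per library), changed sign with 1 library left out. None of these passed. Btg4 went to -0.163 and Mphosph6 to -0.108 without metformin replicate 3, and Mphosph6 to -0.005 without control replicate 1; their ranges over the single omissions were -0.163 to 0.282 and -0.108 to 0.225. Cnot6 went to -0.021 without metformin replicate 2 (range -0.021 to 0.182). Cnot8 went to 0.013, 0.031 and 0.061 without control replicate 1, control replicate 3 and metformin replicate 2 (-0.118 to 0.061). Tut4 went to -0.018 without control replicate 3 and -0.226 without metformin replicate 2 (-0.226 to 0.725). Of the further genes, Angel2 went to -0.018 without metformin replicate 3 (-0.018 to 0.114), Cnot9 to 0.090 without control replicate 3 and 0.084 without metformin replicate 2 (-0.071 to 0.090), and Lsm1 to 0.104 without control replicate 3 and 0.166 without metformin replicate 1 (-0.102 to 0.166). The cause was not tested. The other 306 fitted values of single genes kept their direction and stayed on the same side of the threshold. Per kilobase of the longest transcript in place of FPKM, Btg4 went from 2888 to 7032, Mphosph6 from 3177 to 6896, Cnot7 from 89.0 to 328, Pabpn1l from 122 to 197, Xrn2 from 35.3 to 46.7, Pan2 from 10.2 to 27.6 and Cnot11 from 12.2 to 27.2, as the shorter length brings. The share of Cnot8 in its pair went from 38.8% to 18.8% and that of Btg4 among BTG/TOB genes from 99.25% to 99.61%.

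With 3 libraries a group, the median SE was 0.187 on the log2 scale for the decay genes, and changes well below 2-fold were often not detectable. Changes nearer to 2-fold could also fail after adjustment over all genes. Lsm7, at a log2 fold change of 0.80 with an unadjusted p of 0.00371 (edgeR), did not pass.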
